A study of Rattus norvegicus with 23 samples.

Results

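Transforming growth factor beta (TGF-beta) signaling is represented here by 9 genes, namely the ligands Tgfb1, Tgfb2, Tgfb3 and Inhba, the latency protein Ltbp1, the receptors Tgfbr1, Tgfbr2 and Tgfbr3, and Smad7, a target and inhibitor of the pathway. The genes were chosen by name, and a probe set counted for a gene when that gene was the only one it named. Of the 9 genes, 8 had such a probe set among 14217 genes measured, and Tgfbr2 was not analysed here. The 8 genes had 14 probe sets, and each gene is described by the brightest of its probe sets, averaged over the 23 arrays.

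TGF-beta ligands are secreted in an inactive complex that latent TGF-beta binding proteins tether to the matrix until the ligand is released. The active ligand binds the type II receptor, which then phosphorylates the type I receptor Tgfbr1, and this receptor passes the signal to Smad proteins that enter the nucleus. In the liver the pathway is best known for turning stellate cells into matrix-producing myofibroblasts and for restraining the growth of hepatocytes.

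RNA was measured on rat genome arrays in 8 groups of cells, and the labels name no transgene or drug in any of them. Hepatocytes and liver sinusoidal endothelial cells (LSECs), which line the sinusoids, came from female Lewis rats, while the Kupffer cells (KCs), the liver's own macrophages, were bought as frozen primary rat cells. Hepatocytes were cultured as a hepatocyte monolayer (HM), as a collagen sandwich (CS), in a 3D model with LSECs (3DHL) or in a 3D model with LSECs and KCs (3DHLK), and a detachable polymer membrane lay between the hepatocytes and the other cells of the 3D models. Each of these 4 hepatocyte groups and the LSECs of both 3D models had 3 arrays on day 12, the KCs of the 3DHLK model had 2 arrays on day 12, and KC monolayers had 3 arrays on day 3. The paper states that only these 2 KC samples of the 3DHLK model passed its check of RNA quality. The cell types of the 3D models had been parted with magnetic beads carrying SE-1 antibodies for LSECs and CD163 antibodies for KCs. The labels do not say that the arrays of a group came from separate animals or cultures, so p-values refer only to how these arrays varied, which may be technical variation. The day and the culture of the KC groups cannot be told apart. All levels are log2 values per probe set after RMA, and changes were tested with limma across all 14217 genes at a Benjamini-Hochberg adjusted p of 0.05.

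The labels of the cell fractions were set against marker lists, and several fractions did not stand out by the average of the list for their label. Averaged over 25 genes, the hepatocyte markers were at 12.44 and 12.70 in the LSEC fractions of the 3DHL and 3DHLK models and 11.92 in the KC fraction, against 12.22 to 12.95 in the hepatocyte groups. The 23 genes of the endothelial list averaged 6.25 and 6.37 in the LSEC fractions and 6.13 to 6.60 in the hepatocyte groups, and were highest in the KC fraction (6.86) and the KC monolayers (7.20). Mrc1, a gene of this list that macrophages also make, was at 11.41 in KC monolayers and 9.35 in 3DHLK hepatocytes. It was at 6.29 in 3DHLK LSECs and 6.33 in the KC fraction, and its part in these averages was not tested. The sinusoidal scavenger receptor Stab2 had group means of 5.85 and 5.98 in the LSEC fractions and of 5.46 to 5.87 in hepatocytes, and its highest group mean was that of the KC fraction, 6.36. The LSEC fractions thus held hepatocyte markers at the level of hepatocytes. The endothelial list of the 3DHL fraction, at 6.25, lay above the 6.18 of the hepatocytes beside it. That of the 3DHLK fraction, at 6.37, lay below the 6.60 of its own hepatocytes. Gene by gene, the 3DHLK fraction had 10 endothelial markers called higher and 6 lower against these hepatocytes. For the 3DHL fraction the counts were 3 higher and 2 lower. A list of 19 macrophage genes averaged 12.19 in KC monolayers, 6.99 in the KC fraction of the 3DHLK model and 7.74 in the hepatocytes of that model, so this list was lower in the KC fraction than in the hepatocytes beside it. For 21 genes marking stellate cells and fibroblasts the average was 9.34 in 3DHLK hepatocytes, 7.55 to 8.18 in the other hepatocyte groups, 6.54 and 6.61 in the LSEC fractions, 6.75 in the KC fraction and 7.82 in KC monolayers. The Y-linked gene Eif2s3y was measured at 8.46, 8.18 and 8.19 in the 3 arrays of 3DHLK hepatocytes and at a mean of 9.14 in KC monolayers, and the means of the other 6 groups, the KC fraction included, were 3.42 to 3.51. The hepatocytes were labelled as female, and among the hepatocyte arrays those of the 3DHLK model stood apart in this transcript. Xist, a transcript of female cells, had means of 10.11 in 3DHLK hepatocytes, 10.15 in the KC fraction and 4.38 in KC monolayers. In the remaining groups its means were 10.38 to 11.81. The 3DHLK hepatocyte arrays thus held both transcripts, and the KC fraction held Xist without a raised Eif2s3y. The fractions are called by the names of their labels.

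**Figure D1:**
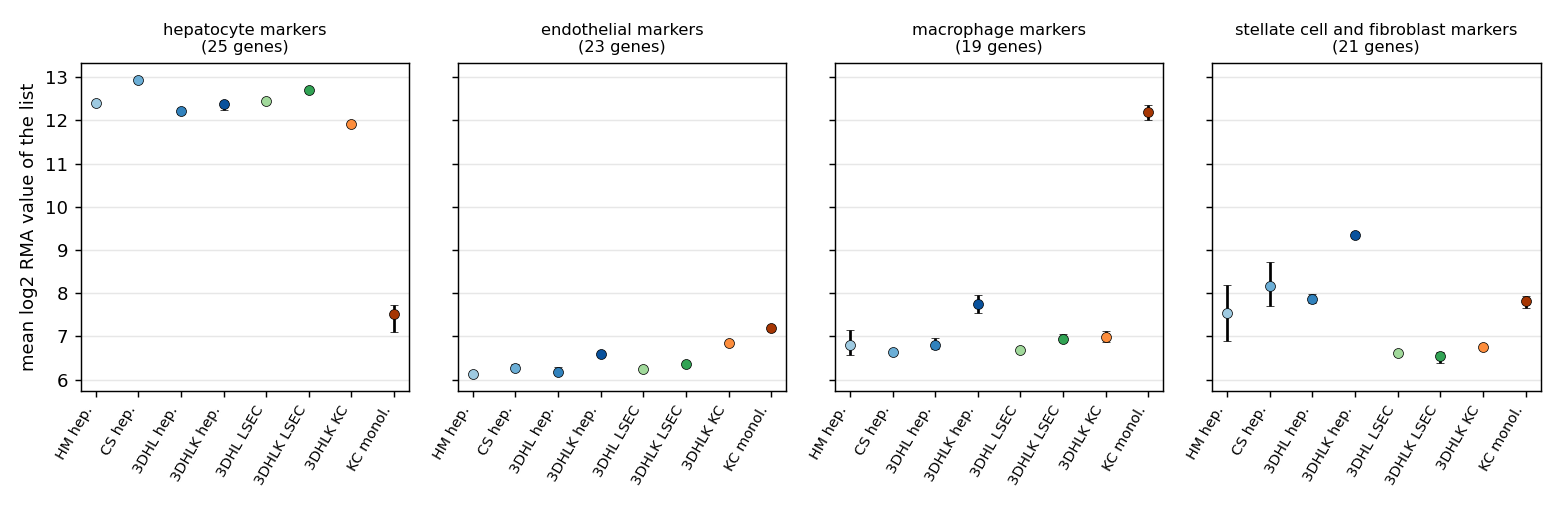
Mean log2 RMA value of each marker list (vertical axis) in the 8 groups (horizontal axis), with bars from the lowest to the highest array. The hepatocyte list is high in all groups but the KC monolayers, and the stellate cell and fibroblast list is highest in the 3DHLK hepatocytes, at 9.34.

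The levels of the members fell into 3 kinds of pattern over the 8 groups. Tgfb1 and Tgfbr1 were highest in KC monolayers, while Tgfb2, Tgfb3 and Inhba had their 3 lowest group means in the LSEC and KC fractions of the 3D models. Ltbp1 followed them, except that the KC monolayers lay below the 3DHL LSECs. Tgfbr3 stood out in the 3DHLK hepatocytes, and the group means of Smad7 spanned 0.68 log2 units, from 8.82 to 9.50. As these are bulk samples, fewer cells of a type and less RNA per cell cannot be told apart.

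**Figure D2:**
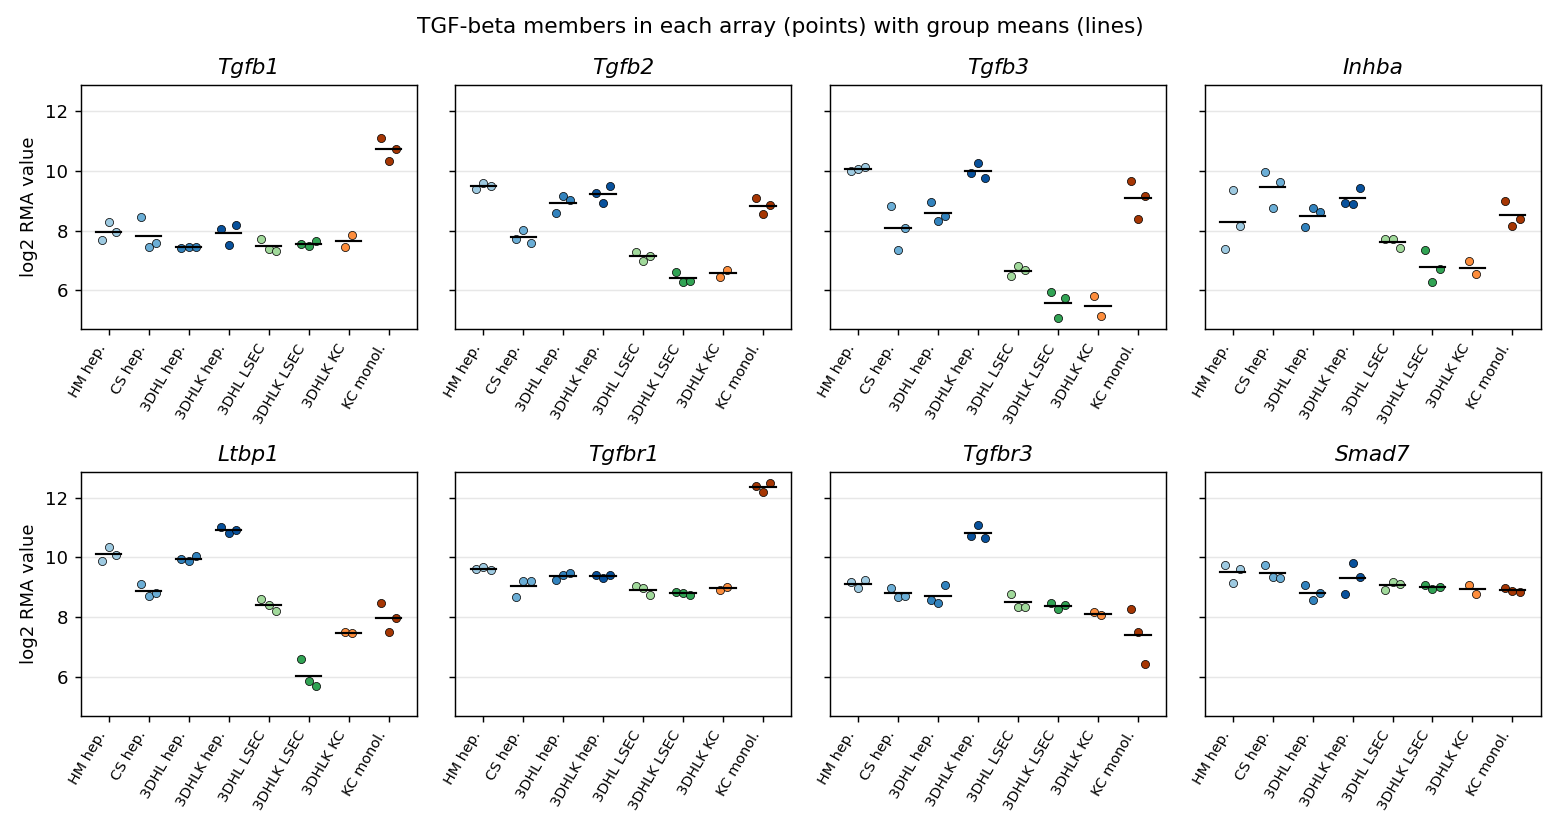
Log2 RMA value of each member (vertical axis) in each of the 23 arrays (points), by group (horizontal axis), with group means as lines; hep. stands for hepatocytes and monol. for monolayers. Levels are to be compared within a panel only. Tgfb1 and Tgfbr1 are highest in KC monolayers, at means of 10.72 and 12.36, and Ltbp1 is lowest in 3DHLK LSECs, at 6.05.

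Among the ligands, Tgfb1, the form that is best known for driving liver fibrosis, was at 11.09, 10.34 and 10.74 in the KC monolayers. In the other 20 arrays it lay between 7.31 and 8.44, so the KC monolayers did not overlap with any other group. The group means of the other 7 groups ran from 7.44 in 3DHL hepatocytes to 7.97 in HM, and none of the 6 neighbouring pairs in that order differed by the test. Of the 28 pairs of groups, 7 differed for Tgfb1, each with the KC monolayers on 1 side.

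Tgfb2, which is made by epithelial and mesenchymal cells, followed another order. It was at 9.38, 9.58 and 9.50 in HM, at 7.71, 8.02 and 7.59 in CS, at 8.59, 9.17 and 9.03 in 3DHL hepatocytes and at 9.24, 8.92 and 9.49 in 3DHLK hepatocytes. In the LSEC fractions it was at 7.29, 6.99 and 7.16 (3DHL) and at 6.60, 6.28 and 6.32 (3DHLK), in the KC fraction at 6.46 and 6.68, and in KC monolayers at 9.09, 8.56 and 8.85. The arrays of these LSEC and KC fractions were below every hepatocyte array. The means ran in the order HM, 3DHLK hepatocytes, 3DHL hepatocytes and KC monolayers, and no neighbours among these differed by the test. Groups further apart did differ. The 3DHL hepatocytes (adjusted p = 0.0358) and KC monolayers (adjusted p = 0.00186) lay below HM, and KC monolayers lay below 3DHLK hepatocytes (adjusted p = 0.0465). Further down the order, KC monolayers lay above CS (adjusted p = 1.05e-05) and CS above 3DHL LSECs (adjusted p = 0.0107).

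Tgfb3, a ligand of mesenchymal cells for the most part, ran with Tgfb2. It was at 9.98, 10.07 and 10.13 in HM, at 8.81, 7.33 and 8.07 in CS, at 8.94, 8.32 and 8.48 in 3DHL hepatocytes and at 9.94, 10.26 and 9.77 in 3DHLK hepatocytes. The LSEC arrays were at 6.48, 6.81 and 6.69 (3DHL) and at 5.93, 5.08 and 5.76 (3DHLK), the KC fraction at 5.83 and 5.16, and the KC monolayers at 9.66, 8.40 and 9.16. Its group means spanned 4.56 log2 units, and 98.3% of all genes had a smaller SD of group means. The neighbours that differed in its order were 3DHLK hepatocytes over KC monolayers, CS over 3DHL LSECs, and 3DHL LSECs over 3DHLK LSECs.

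Inhba encodes the beta A chain of activin A, a related ligand with receptors of its own, and its arrays spread widely within the hepatocyte groups. It was at 7.39, 9.36 and 8.14 in HM and at 9.97, 8.75 and 9.61 in CS. The stellate cell and fibroblast list had the same order of the arrays within each of these groups, with 6.89, 8.20 and 7.56 in HM and 8.73, 7.71 and 8.10 in CS, and its part in the levels of Inhba was not tested. The group means of Inhba ran from 6.76 in the KC fraction to 9.44 in CS, and none of its 7 neighbouring pairs differed by the test. Over all 28 pairs of groups, however, 15 differed for Inhba. By its other probe set the KC fraction was again lowest, at 6.86, but the KC monolayers were highest, at 9.32, with CS at 8.63.

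Ltbp1 binds the latent complex and fixes it to the matrix, and it had the widest span of the members, 4.87 log2 units. It was at 9.89, 10.34 and 10.08 in HM, at 9.12, 8.72 and 8.83 in CS, at 9.94, 9.87 and 10.06 in 3DHL hepatocytes and at 11.03, 10.81 and 10.93 in 3DHLK hepatocytes. The LSEC arrays were at 8.60, 8.42 and 8.20 in the 3DHL model and at 6.59, 5.86 and 5.70 in the 3DHLK model. Thus the 3DHLK model held both the highest level of Ltbp1, in its hepatocytes, and the lowest, in its LSEC fraction. The mean of the KC fraction was 7.49, from arrays at 7.50 and 7.48, and the KC monolayers were at 8.47, 7.52 and 7.99. From the top of the order, 3DHLK hepatocytes lay above HM (adjusted p = 0.00662), 3DHL hepatocytes above CS (adjusted p = 0.000838) and the KC fraction above 3DHLK LSECs (adjusted p = 0.000141), and no other neighbours differed by the test.

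Ltbp1, Tgfb2 and Tgfb3 were high and low in much the same groups, so the 250 bases before their gene starts are shown, with those of Tgfb1 as the ligand of the other pattern. Over the 8 group means, which share arrays and scaling, Pearson's r was 0.98 between Tgfb2 and Tgfb3, 0.84 between Tgfb2 and Ltbp1 and 0.84 between Tgfb3 and Ltbp1, against 0.35 between Tgfb1 and Tgfb2. The sequences are RefSeq windows of the rat build GRCr8, in which the 8 measured members had an entry, and are written in the direction of the gene.
Ltbp1, chr6:26177302-26177551, minus strand: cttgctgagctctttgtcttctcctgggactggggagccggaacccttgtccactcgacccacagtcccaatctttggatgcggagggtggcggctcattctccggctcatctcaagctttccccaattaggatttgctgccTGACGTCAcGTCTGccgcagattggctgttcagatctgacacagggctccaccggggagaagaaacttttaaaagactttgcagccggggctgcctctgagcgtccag
Tgfb2, chr13:100792686-100792935, minus strand: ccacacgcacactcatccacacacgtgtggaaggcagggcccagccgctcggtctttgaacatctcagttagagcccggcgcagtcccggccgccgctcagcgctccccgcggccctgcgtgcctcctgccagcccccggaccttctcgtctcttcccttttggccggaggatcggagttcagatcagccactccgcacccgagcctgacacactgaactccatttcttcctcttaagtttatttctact
Tgfb3, chr6:111456947-111457196, minus strand: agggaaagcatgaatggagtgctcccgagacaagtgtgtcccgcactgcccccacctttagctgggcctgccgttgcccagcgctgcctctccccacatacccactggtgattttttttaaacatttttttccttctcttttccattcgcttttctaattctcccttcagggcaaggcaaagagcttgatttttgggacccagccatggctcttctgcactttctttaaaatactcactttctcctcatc
Tgfb1, chr1:90324062-90324311, plus strand: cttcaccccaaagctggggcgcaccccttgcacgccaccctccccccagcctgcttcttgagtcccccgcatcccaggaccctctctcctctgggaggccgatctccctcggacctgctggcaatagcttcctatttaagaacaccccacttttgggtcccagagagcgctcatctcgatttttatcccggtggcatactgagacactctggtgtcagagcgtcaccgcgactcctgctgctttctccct
The capitals mark matches to the letters searched on both strands, which were the Smad palindrome GTCTAGAC, the Smad box CAGAC, the AP-1 site TGANTCA, the Sp1 box GGGCGG and the cAMP response element TGACGTCA. The last of these was added after the windows had been read. In Ltbp1 a cAMP response element began 108 bases before the start, and the next match, a Smad box on the other strand, began 99 bases before it. The windows of Tgfb2, Tgfb3 and Tgfb1 held none of the 5 motifs. Of 33469 windows of the same length, 42.9% held the Smad box and 1.59% the cAMP response element, while 30.5% held the Sp1 box, 6.34% the AP-1 site and 0.173% the Smad palindrome. The Sp1 box stood in the windows of 3 members, Tgfbr1, Tgfbr3 and Smad7, which are not shown.

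Tgfbr1, the type I receptor kinase, was at 12.40, 12.19 and 12.50 in KC monolayers. In the other 20 arrays it lay between 8.68 and 9.69. As with Tgfb1, the KC monolayers stood above all other arrays, with HM next at a mean of 9.63 (adjusted p = 3.78e-14). Below them, 3DHLK hepatocytes at 9.37 lay above CS at 9.03 (adjusted p = 0.0493) by this probe set, while by the other their means were 7.72 and 7.90, and no other neighbours differed by the test.

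Tgfbr3, or betaglycan, is a co-receptor that presents ligands, Tgfb2 above all, to the signaling receptors. It was at 10.73, 11.10 and 10.64 in 3DHLK hepatocytes, and the highest array of any other group was at 9.23. The next group mean was that of HM, 9.13 (adjusted p = 9.86e-05). At the other end, the KC monolayers were at 8.28, 7.51 and 6.43, the widest spread of its 8 groups, and their mean was below that of the KC fraction (adjusted p = 0.0487). By the other probe set the KC fraction was the lower, with a change of -0.47 (adjusted p = 0.0109). That probe set also had its highest mean in the 3DHLK hepatocytes, at 8.80, 9.04 and 8.85. There the KC monolayers came next, at 8.27, 8.90 and 8.37, and their arrays overlapped with those of the 3DHLK hepatocytes. By the brighter probe set the remaining neighbours, from HM at 9.13 down to the KC fraction at 8.13, did not differ by the test. Within that run the KC fraction (adjusted p = 0.0137) and 3DHLK LSECs (adjusted p = 0.034) did lie below HM.

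Smad7, which is induced by TGF-beta and blocks the type I receptor, varied least of the 8 members by its brightest probe set. By this probe set its arrays lay between 8.57 and 9.80 over all groups, and 25.4% of genes had a smaller SD of group means. None of its 7 neighbouring pairs differed by the test, while 5 of all 28 pairs of groups did. By its other probe sets the group means ran from 6.76 and 8.10 in 3DHL hepatocytes to 7.96 and 8.91 in KC monolayers. Of all 56 neighbouring pairs of the 8 members, 13 differed, where 10.1% of such pairs differed over all genes.

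Culture format was compared among hepatocytes first, and CS lay below HM for the ligands Tgfb2 and Tgfb3, for Ltbp1 and for Tgfbr1, while Inhba was higher in CS. Thus 4 of the 8 members were down-regulated and 1 was up-regulated, where 21.8% of all genes were called in this comparison, 10.7% lower and 11.1% higher. The median log2 change was -0.46 over the members and 0.04 over all genes. In the CS arrays given above, all values of Tgfb2, Tgfb3, Ltbp1 and Tgfbr1 lay below all values of HM. Tgfb3 fell by 1.98 (SE 0.314, 3.95-fold, adjusted p = 7.7e-05) and Tgfb2 fell by 1.71 (SE 0.171, 3.28-fold, adjusted p = 2.24e-07). Ltbp1 fell by 1.21 (2.32-fold, adjusted p = 0.000206), so that Tgfb2, Tgfb3 and this storage protein moved the same way. Tgfbr1 fell by 0.60 (adjusted p = 0.00199), but its other probe set changed by -0.36 (adjusted p = 0.113).

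The rise of Inhba in CS, 1.15 (SE 0.374, 2.22-fold, adjusted p = 0.0309), rested on arrays that overlapped between the groups. It was not called without HM array 1 (0.69, adjusted p = 0.224), HM array 3 (adjusted p = 0.0983), CS array 1 (adjusted p = 0.15) or CS array 3 (adjusted p = 0.103). Its other probe set changed by 0.20 (adjusted p = 0.764). Of the 21 stellate cell and fibroblast markers, 10 were higher and 2 were lower in CS than in HM. The list ranged from 6.89 to 8.20 over the HM arrays and from 7.71 to 8.73 over the CS arrays, and its part in the changes of Inhba and the other members was not tested. Tgfb1, Tgfbr3 and Smad7 changed by -0.13, -0.33 and -0.02 and were not called.

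The 3DHL hepatocytes lay between HM and CS for some members. Against HM, 3 members were lower and none was higher, where 11.7% of genes were called, 4.7% lower and 7.04% higher. Tgfb3 fell by 1.48 (SE 0.314, 2.79-fold, adjusted p = 0.00332), Smad7 fell by 0.68 (adjusted p = 0.0291) and Tgfb2 fell by 0.56 (adjusted p = 0.0358), and in each the arrays of both groups did not overlap. The fall of Tgfb3 was called whichever array was left out. That of Tgfb2 was not called without HM arrays 1, 2 or 3 or without 3DHL arrays 1 or 3 (adjusted p = 0.061 to 0.208), and that of Smad7 was not called without HM arrays 1 or 3 or without 3DHL arrays 2 or 3 (adjusted p = 0.0781 to 0.15). Tgfb1 changed by -0.53 with no overlap and was not called (adjusted p = 0.15), but was called in the fit of these groups alone (adjusted p = 0.0231).

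Against CS, the 3DHL hepatocytes were higher for 2 members and lower for 1, where 21.8% of genes were called, 12.8% higher and 9.03% lower. Tgfb2 rose by 1.15 (SE 0.171, 2.23-fold, adjusted p = 3.89e-05) and Ltbp1 rose by 1.07 (SE 0.211, 2.10-fold, adjusted p = 0.000838). Both ligand and storage protein lay above CS in all 3 arrays. Smad7 fell by 0.66 (adjusted p = 0.0219), and it was not called without CS array 1 (adjusted p = 0.122) or without 3DHL arrays 2 (adjusted p = 0.113) or 3 (adjusted p = 0.0612). Tgfb3, at 0.50 (adjusted p = 0.263), was not called, nor were Inhba (-0.94, adjusted p = 0.0764) and Tgfbr1 (0.35, adjusted p = 0.061). Without CS array 2 both were called (Inhba -1.29, Tgfbr1 0.44). Tgfbr1 was also called without CS array 3 (0.44) and without the KC monolayers (adjusted p = 0.0291), and Inhba was called in the fit of these groups alone (adjusted p = 0.0378). Of the 25 hepatocyte markers 12 were lower and 1 was higher in 3DHL than in CS, and their part in these changes was not tested. The 3 comparisons among HM, CS and 3DHL share arrays, so each is read on its own.

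**Figure D3:**
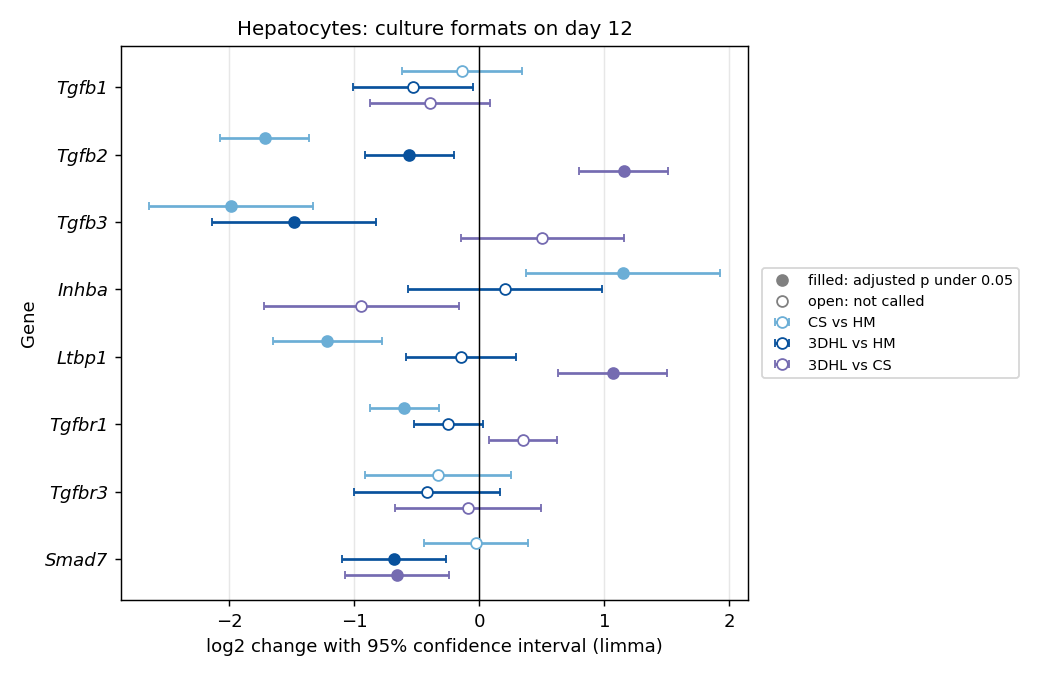
Log2 change of each member (horizontal axis) between hepatocyte cultures, with bars for the 95% confidence interval of the limma fit, filled points for called changes and open points for the others. Tgfb2, Tgfb3 and Ltbp1 lie left of 0 for CS against HM, at -1.71, -1.98 and -1.21, and Tgfb2 and Ltbp1 lie right of 0 for 3DHL against CS.

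The addition of KCs to the 3D model was examined next in hepatocytes, and Tgfb3, Ltbp1 and Tgfbr3 were higher in 3DHLK than in 3DHL hepatocytes. Of the 8 members, 3 were called higher and none lower, where 11.5% of genes were called, 7.72% higher and 3.76% lower. The members had a median change of 0.53, against -0.08 over all genes. Tgfbr3 went from 8.57, 8.47 and 9.09 to 10.73, 11.10 and 10.64, a rise of 2.11 (SE 0.281, 4.33-fold, adjusted p = 1.04e-05). Its other probe set rose by 0.97 (adjusted p = 2.62e-05), so both probe sets of the co-receptor were higher. Tgfb3 rose by 1.41 (SE 0.314, 2.66-fold, adjusted p = 0.00361), with the lowest 3DHLK array at 9.77 and the highest 3DHL array at 8.94. Ltbp1 rose by 0.97 (SE 0.211, 1.95-fold, adjusted p = 0.00297), with the lowest 3DHLK array at 10.81 and the highest 3DHL array at 10.06. These 3 calls were made whichever array was left out. Smad7 changed by 0.49 (adjusted p = 0.125) and was called only without 3DHLK array 1 (0.76, adjusted p = 0.012). Tgfb1 and Inhba changed by 0.48 and 0.57 and were not called although their arrays did not overlap, Tgfb2 changed by 0.29, and Tgfbr1 changed by -0.01.

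Markers of other cell types moved with these changes. Of the 21 stellate cell and fibroblast markers, 11 were higher and none was lower in the 3DHLK hepatocytes, and the list ranged from 7.78 to 7.97 over the 3DHL arrays and from 9.28 to 9.43 over the 3DHLK arrays. Col1a1, a fibrillar collagen chain, had means of 10.87 and 13.01, while Lrat, the retinol-esterifying enzyme of quiescent stellate cells, had means of 5.15 and 4.95. Of the 19 macrophage markers 12 were higher and none was lower, with the list at 6.71 to 6.97 and at 7.55 to 7.96, and Adgre1, the macrophage surface protein F4/80, had means of 4.42 and 5.97. Of the 23 endothelial markers 6 were higher and none was lower, with the list at 6.12 to 6.28 and at 6.54 to 6.64. The Y-linked Eif2s3y had a mean of 3.51 in the 3DHL arrays, against the 8.18 to 8.46 given above. The part of these lists and of the Y-linked transcript in the rise of Tgfb3, Ltbp1 and Tgfbr3 was not tested, and since all 3DHLK hepatocyte arrays carried them, the result cannot be given without those arrays.

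In LSECs the same addition of KCs went with lower values of Tgfb2, Tgfb3 and Ltbp1. Of the 8 members, 3 were called lower and none higher, where 7.47% of genes were called, 3.89% lower and 3.58% higher, and the median change was -0.43 over the members and 0.04 over all genes. Ltbp1 went from 8.60, 8.42 and 8.20 in the 3DHL model to 6.59, 5.86 and 5.70 in the 3DHLK model, and so fell by 2.35 (SE 0.211, 5.11-fold, adjusted p = 3.29e-07). Its lowest 3DHL array, at 8.20, lay above its highest 3DHLK array, at 6.59, and it was called whichever array was left out. Tgfb2 fell by 0.74 (SE 0.171, 1.68-fold, adjusted p = 0.00791), with no overlap between the arrays, but was not called without 3DHL array 1 (adjusted p = 0.0555) or 3DHLK array 2 (adjusted p = 0.0508), and its other probe set changed by -0.38 (adjusted p = 0.467). Tgfb3 fell by 1.07 (SE 0.314, 2.11-fold, adjusted p = 0.0381), again with no overlap, and was called in 1 of the 6 fits that left out an array, that without 3DHLK array 1. In the fits without 3DHL arrays 1, 2 or 3 and without 3DHLK arrays 2 or 3, its adjusted p was 0.0761 to 0.226. Inhba changed by -0.84 with no overlap and was not called (adjusted p = 0.211), but was called in the fit of these groups alone (adjusted p = 0.0369). Tgfb1, Tgfbr1, Tgfbr3 and Smad7 changed by 0.08, -0.12, -0.11 and -0.06 and were not called. Of the 21 stellate cell and fibroblast markers 1 was higher and 3 were lower, and the list ranged from 6.55 to 6.64 in the 3DHL and from 6.38 to 6.65 in the 3DHLK LSECs. The 25 hepatocyte markers held 3 that were higher and 1 that was lower, and of the 19 macrophage markers 2 were higher and none was lower. The part of these markers in the fall of Ltbp1 was not tested.

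The difference between both cell types in their change with KCs was tested as an interaction, and it was called for 4 of the 8 members, all with a more negative change in LSECs, where 10.3% of genes were called, 6.81% in this direction and 3.51% in the other. For Ltbp1 the LSEC change minus the hepatocyte change was -3.32 (SE 0.298, adjusted p = 1.28e-07), for Tgfb3 -2.48 (adjusted p = 6e-04), for Tgfbr3 -2.23 (adjusted p = 0.000587) and for Tgfb2 -1.04 (adjusted p = 0.00698). For Ltbp1 and Tgfb3 a rise in hepatocytes met a fall in LSECs. For Tgfbr3 the LSECs changed by -0.11 (adjusted p = 0.882), and for Tgfb2 the hepatocytes changed by 0.29 (adjusted p = 0.316). The interaction of the other probe set of Tgfbr3 was -1.04 (adjusted p = 0.000992), and that of Tgfb2 was -0.51 (adjusted p = 0.429). This test uses the 3DHLK hepatocyte arrays, whose other marker lists are given above.

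**Figure D4:**
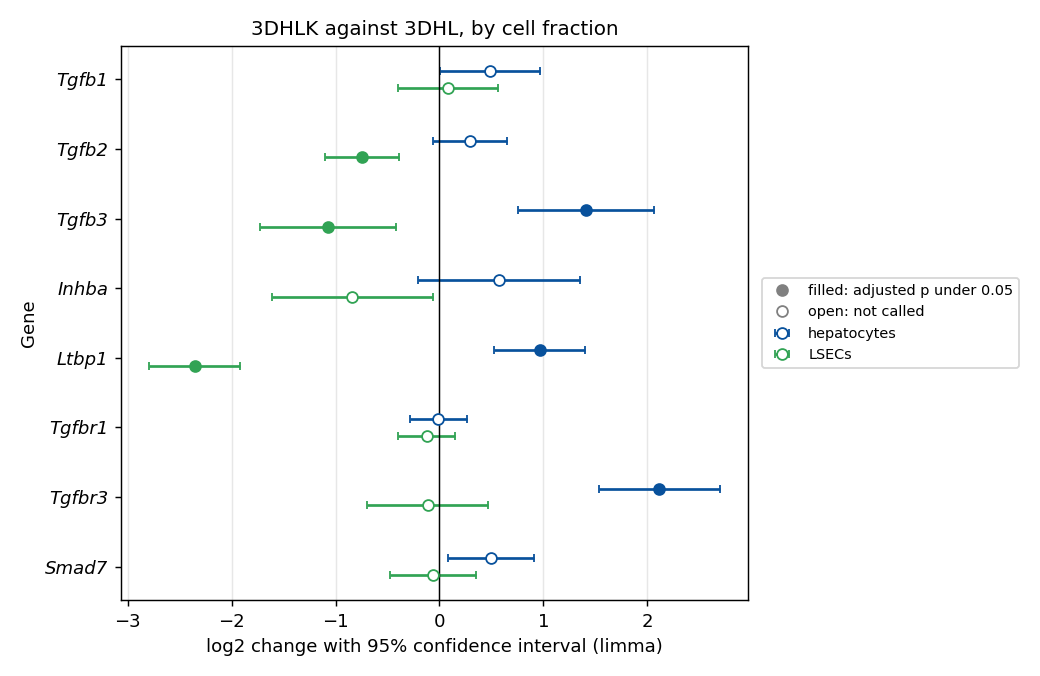
Log2 change of each member from 3DHL to 3DHLK in hepatocytes and in LSECs (horizontal axis), with error bars for the 95% confidence interval of the limma fit, filled points for called changes and open points for the others. Ltbp1 moves by 0.97 in hepatocytes and by -2.35 in LSECs, and Tgfbr3 by 2.11 and -0.11.

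Within a 3D model the LSEC fraction was compared with the hepatocytes beside it. In the 3DHL model, 4 members were lower in LSECs and none was higher, where 40.4% of genes were called, 21.9% lower and 18.5% higher. Tgfb3 was 3.78-fold lower (adjusted p = 7.5e-05), Tgfb2 3.44-fold lower (adjusted p = 8.27e-08) and Ltbp1 2.93-fold lower (adjusted p = 8.65e-06). Inhba differed by -0.87 with no overlap and was not called (adjusted p = 0.0668), but was called in the fit of these groups alone (adjusted p = 0.00144). In the same comparison 9 of the 21 stellate cell and fibroblast markers were lower and none was higher, with the list at 6.55 to 6.64 over the LSEC arrays and at 7.78 to 7.97 over the hepatocyte arrays. In the 3DHLK model, 6 members were lower and none was higher, where 60.4% of genes were called, 25.7% lower and 34.7% higher. There Ltbp1 differed by -4.87 (SE 0.211, 29.3-fold, adjusted p = 1.94e-13), Tgfb3 by -4.40 (21.1-fold, adjusted p = 2.51e-10), Tgfb2 by -2.82 (7.06-fold), Tgfbr3 by -2.44 (5.42-fold) and Inhba by -2.28 (4.87-fold), and no array of the LSECs reached a hepatocyte array for these 5 genes. The median difference of the members was -2.36, against 0.11 over all genes. Of the 21 stellate cell and fibroblast markers 15 were lower in these LSECs and 3 were higher, with the list at 6.38 to 6.65 against 9.28 to 9.43 in the hepatocytes, and of the 19 macrophage markers 13 were lower and 2 were higher. Their part in these differences was not tested.

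The 2 probe sets of Tgfbr1 did not give the same direction here. The one with the higher mean lay lower in LSECs than in hepatocytes, by -0.46 in the 3DHL model (adjusted p = 0.00937) and by -0.57 in the 3DHLK model (adjusted p = 0.000926). The other changed by 0.29 in the 3DHL model (adjusted p = 0.141) and rose by 0.61 in the 3DHLK model (adjusted p = 0.00223). For Smad7, too, the probe sets parted, since the one described above was not called in either model, while another was higher in LSECs by 0.93 in the 3DHL model (adjusted p = 0.000753) and by 0.84 in the 3DHLK model (adjusted p = 0.000888). No direction is therefore given for Tgfbr1 or Smad7 between LSECs and hepatocytes.

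KCs of the 3DHLK model were compared with KC monolayers, and the ligands Tgfb1, Tgfb2, Tgfb3 and Inhba and the receptor Tgfbr1 were lower in the 3DHLK model. Thus 5 members were called lower and 1 higher, where 65.2% of genes were called, 20.8% lower and 44.5% higher. The median change was -2.00 over the members and 0.27 over all genes. Cyclic loess moved the median of all genes in this comparison by -0.15 and centring on housekeeping genes moved it by -0.33, and the 5 lower calls were made under both. Tgfbr1 went from 12.40, 12.19 and 12.50 to 8.91 and 9.02, and so fell by 3.39 (SE 0.147, 10.5-fold, adjusted p = 9.49e-15). Its other probe set fell by 4.03 (adjusted p = 8.32e-15), so the receptor kinase was lower by both. Tgfb1 went to 7.45 and 7.86, a fall of 3.07 (SE 0.258, 8.38-fold, adjusted p = 8.85e-10). Tgfb3 fell by 3.58 (12.0-fold, adjusted p = 1.03e-08), Tgfb2 fell by 2.26 (4.80-fold, adjusted p = 9.62e-10) and Inhba fell by 1.75 (3.36-fold, adjusted p = 0.000962), and in all 5 genes the arrays of both groups did not overlap.

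The other 3 members did not give a settled change between the KC groups. Tgfbr3 rose by 0.72 (adjusted p = 0.0487), but its arrays overlapped, its other probe set fell by 0.47 (adjusted p = 0.0109), and without KC monolayer array 3 the change was 0.23 (adjusted p = 0.389). It was also not called without KC monolayer array 2 (adjusted p = 0.058) or without either array of the KC fraction (adjusted p = 0.163 and 0.116). Ltbp1 changed by -0.50 (adjusted p = 0.0661), and was called lower without KC monolayer array 2 (-0.74, adjusted p = 0.00749) and with loess or housekeeping centring (-0.80 and -0.83). Smad7 changed by 0.02, by -0.34 with loess and by -0.31 with housekeeping centring, and none of these was called, while another of its probe sets fell by 0.54 (adjusted p = 0.031). All 19 macrophage markers were lower in the KC fraction, with the list at 6.87 to 7.11 against 12.00 to 12.36 in the monolayers, and Adgre1 had means of 5.38 and 12.91. Of the 25 hepatocyte markers 24 were higher and none was lower, and of the 21 stellate cell and fibroblast markers 1 was higher and 10 were lower. The part of these markers in the changes of the members was not tested.

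Within the 3DHLK model, the LSEC and KC fractions differed for 1 member, where 15.1% of genes were called, 5.35% lower in LSECs and 9.73% higher. This was Ltbp1, 2.71-fold lower in LSECs (SE 0.236 on the log2 scale, adjusted p = 0.000141). Beside it, 11 of the 23 endothelial markers were lower and none was higher in LSECs than in the KC fraction (lists at 6.34 to 6.41 and 6.82 to 6.89), and 15 of the 25 hepatocyte markers were higher and 1 was lower. Hepatocytes were higher than the KC fraction for 6 members, where 56.5% of genes were called, 25.9% higher and 30.6% lower. Tgfb3 was 22.6-fold higher, Ltbp1 10.8-fold, Tgfbr3 6.49-fold, Tgfb2 6.28-fold and Inhba 4.97-fold, and the arrays did not overlap. In this comparison 14 of the 21 stellate cell and fibroblast markers were higher and 2 were lower in hepatocytes (lists at 9.28 to 9.43 and 6.72 to 6.79), 11 of the 19 macrophage markers were higher and 3 lower, and 5 of the 23 endothelial markers were higher and 16 lower. The part of these markers in either comparison was not tested. For Tgfbr1 the difference was 0.41 (adjusted p = 0.024) by one probe set and -0.37 (adjusted p = 0.0735) by the other, and the first was not called without 3DHLK hepatocyte array 1 or 3 or without either KC array (adjusted p = 0.0537 to 0.134).

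The rest of the TGF-beta superfamily pathway was taken as 6 lists with 89 measured genes that are not members. In 3DHLK against 3DHL hepatocytes, 29 of the 89 were higher and 4 were lower, so 37.1% were called against 11.5% of all genes. Of 9 extracellular antagonists 5 were higher and none was lower, led by Grem1, a secreted antagonist of bone morphogenetic proteins (BMPs), which rose by 4.62 (adjusted p = 3.92e-07). Of 16 genes of latency, activation and matrix storage 6 were higher and none was lower, led by the gelatinase Mmp2, which rose by 3.36 (adjusted p = 5.58e-12). Of 24 transcriptional targets 8 were higher and none was lower, with Col3a1, a fibrillar collagen chain, up by 2.52 (adjusted p = 0.0439). Of 9 receptors and co-receptors 2 were higher and none was lower, and the larger rise was that of Acvrl1, the type I receptor ALK1 of endothelial cells, by 3.59 (adjusted p = 1.22e-09). Among 15 ligands 5 were higher and 2 were lower, with Inhbb, the beta B chain of activins, up by 1.90 (adjusted p = 3.83e-07) and the stress-induced Gdf15 down, which fell by 0.79 (adjusted p = 0.0164). Among 16 Smads and intracellular regulators 3 were higher and 2 were lower, with the BMP-activated Smad9 up by 1.34 (adjusted p = 1.7e-05) and Zfyve9, or SARA, which fell by 0.47 (adjusted p = 0.00407). The targets Col1a1, Col1a2, Col3a1, Acta2, Tagln, Postn and Lox and the antagonist Dcn are also on the stellate cell and fibroblast list. The counts of these lists are therefore not separate, and the values of the stellate cell and fibroblast list in these arrays are given above.

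In LSECs with KCs, 1 of the 89 pathway genes was higher and 6 were lower, and 7.87% were called against 7.47% of all genes. Tagln, an actin-binding protein of smooth muscle that is also on the stellate cell and fibroblast list, fell by 3.23 (adjusted p = 8.59e-05). Plat, the tissue plasminogen activator, fell by 2.17 (adjusted p = 0.000176). The gene that rose was Plg, plasminogen, by 1.17 (adjusted p = 8.41e-05), so that the protease precursor and its activator moved in opposite directions. The interaction was called for 28 of the 89 genes, with 27 of these more negative in LSECs, so 31.5% were called against 10.3% of all genes.

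In CS against HM hepatocytes, 14 of the 89 genes were higher and 15 were lower, and 32.6% were called against 21.8% of all genes. Inhbb fell by 1.98 (adjusted p = 2.53e-07), Acvr1, a type I receptor for BMPs and activins, fell by 0.90 (adjusted p = 3.87e-05), and Pmepa1, a TGF-beta target that restrains the pathway, fell by 0.98 (adjusted p = 0.0124). Tnc, the matrix protein tenascin C, fell by 1.56 (adjusted p = 0.00758). Col3a1 rose by 2.41 (adjusted p = 0.0346) and the proteoglycan Bgn rose by 2.15 (adjusted p = 0.0126), and both stand beside the wide spread of the stellate cell and fibroblast list over these arrays. The targets thus split, with 5 of 24 higher and 3 lower, and 16 not called.

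**Figure D5:**
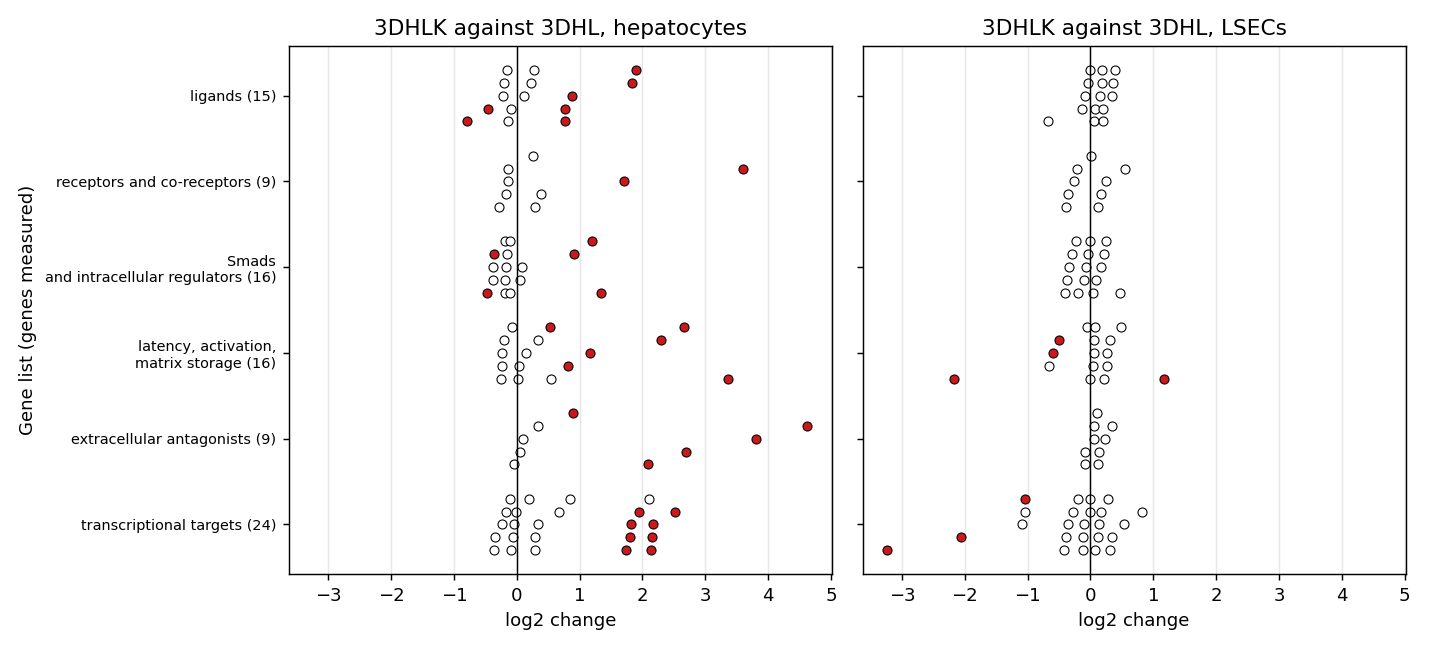
Log2 change from 3DHL to 3DHLK (horizontal axis) of 89 other pathway genes by list (vertical axis), in hepatocytes and in LSECs, with filled points for genes that were called and open points for the others. In 3DHLK against 3DHL hepatocytes 29 genes are called higher and 4 lower, and in LSECs 1 higher and 6 lower.

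Genes whose 8 group means ran most like those of a member were ranked by Pearson's r among 4579 genes with an SD of group means of at least 0.5. For Tgfbr1 these were Gng2 (0.999), Plekhm3 (0.998) and Tacc3 (0.988), and for Tgfb1 Rps6ka5, Nr4a2 (0.992 each) and Lpxn (0.991). Tgfb2 and Tgfb3 had the same leading neighbours, Clstn1 (0.988 and 0.991) and Hp1bp3 (0.986 and 0.985). For Ltbp1 they were Osbpl5 (0.976), Racgap1 (0.972) and Macf1 (0.971), and for Tgfbr3 Apbb1 (0.964), Grb10 (0.959) and Pcolce (0.956), an enhancer of collagen processing. The genes most like Inhba were Myl9 (0.952), a myosin light chain of smooth muscle, Igdcc4 (0.939) and Cd9 (0.937), and those most like Smad7 were Actg2, Pde3a (0.885 each) and Cnn1 (0.880). Among all these genes, Actg2 and Cnn1 for Smad7 and Myl9 for Inhba are smooth muscle genes, and no shared theme was tested. The genes named for Smad7 rest on its brightest probe set, whose group means spanned 0.68 log2 units. Its other probe sets had their highest means in KC monolayers, at 7.96 and 8.91. All points share the same arrays and scaling, and with 8 points the values describe these groups alone.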

How the data were processed

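The deposited table holds log2 values that the authors made with RMA from Affymetrix rat genome arrays, after amplification with the NuGen Ovation Pico kit and array checks with Simpleaffy, as the methods and labels give them. For RMA no version is given in these sources. Array values carry no read depth, so precision rests on the number of arrays. Of 31099 probe sets, 57 were controls, 20826 named 1 gene, 436 named several and 9837 named none, and of each gene the probe set with the highest mean was kept. Array medians were 7.41 to 7.53. Groups follow the labels. Group means were fitted over all 23 arrays with limma 3.58.1 in R 4.3.3 and empirical Bayes, with Benjamini-Hochberg adjustment over 14217 genes at 0.05, and p-values are two-sided. The fit was tested on simulated data. Members, the pathway and marker lists, and the rule for named genes (the members, the 3 genes most like each, and the largest called rise and fall of a list) were chosen with earlier results of these data known. Markers named to check labels were chosen likewise. Deviations from group means correlated between groups at r from -0.36 to 0.34 for arrays of the same replicate number. For arrays of different numbers r ran from -0.34 to 0.35, so the numbers were not used to pair samples. Pairing of the fractions taken from the same 3D model was not tested on its own. Alternatives were other arrays in the fit, the replicate block, other probe sets, a filter on low values, loess, housekeeping centring, another prior, an added mean KC array, and each array left out. Fits without the 3DHLK hepatocytes, and without the LSEC and 3DHLK KC arrays, were chosen after seeing the data. Replicate arrays correlated at 0.987 to 0.998, except for KC monolayers at 0.942 to 0.969. Promoter windows came from RefSeq.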

Additional observations from a re-analysis of the deposited data

Results flagged for a closer look

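The change with KCs, from 3DHL to 3DHLK, differed between LSECs and hepatocytes for 4 members by the interaction test in limma. The LSEC change minus the hepatocyte change was -3.319 for Ltbp1 (SE 0.298, adjusted p = 1.28e-07), -2.484 for Tgfb3 (SE 0.444, adjusted p = 6e-04), -2.228 for Tgfbr3 (SE 0.397, adjusted p = 0.000587) and -1.037 for Tgfb2 (SE 0.242, adjusted p = 0.00698). All 3 LSEC arrays of the 3DHLK model were below those of the 3DHL model for Ltbp1, Tgfb3 and Tgfb2, and all 3 hepatocyte arrays were above for Ltbp1, Tgfb3 and Tgfbr3.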

How the results depend on the processing

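Changes called under each alternative that kept the groups compared included those of Ltbp1 in LSECs with KCs, of Tgfb3, Ltbp1 and Tgfbr3 in hepatocytes with KCs, and of Tgfb2, Tgfb3 and Ltbp1 in CS against HM, and the 5 falls between the KC groups. The fit without the 3DHLK hepatocytes could not test the hepatocyte changes with KCs. Likewise, the fit without the LSEC and 3DHLK KC arrays could not test the changes in LSECs or between the KC groups. The direction and the side of the threshold were kept by all 80 changes with the filter on low values and with the other prior, by 77 with the replicate block, by 77 with housekeeping centring, by 74 with only the arrays compared, by 73 with loess, by 67 with the mean of all probe sets, and by 71 of 72 without the KC monolayers. With the replicate block, Tgfb2 in 3DHL against HM (adjusted p = 0.0511) and Tgfbr3 between the KC groups (adjusted p = 0.0699) were not called and Ltbp1 between the KC groups was (-0.54, adjusted p = 0.0362), and 7 of 23 arrays correlated best with their own number. Without the 3DHLK hepatocytes, Tgfb3 in LSECs with KCs (adjusted p = 0.0513) and Tgfbr3 between the KC groups (adjusted p = 0.0574) were not called. Without the LSEC and 3DHLK KC arrays, 1 of the 3 calls in 3DHL against HM was made, that of Tgfb3, with adjusted p of 0.0821 for Tgfb2 and 0.0808 for Smad7. In that fit Inhba in CS against HM (adjusted p = 0.0609) and Smad7 in 3DHL against CS (adjusted p = 0.0583) were not called. The cause of these changes was not tested.

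With each array left out in turn, the members called numbered 1 to 2 in 3DHL against HM, 2 to 5 in 3DHL against CS, and 1 to 3 in LSECs with KCs. In 3DHL against HM the count was 1 without HM array 1 or 3 or 3DHL array 3, in 3DHL against CS it was 5 without CS array 2, and in LSECs it was 1 without 3DHL array 1 or 3DHLK array 2. Changes near 0 turned sign. Smad7 ranged from -0.20 to 0.095 and Tgfb1 from -0.44 to 0.054 in CS against HM, Inhba from -0.25 to 0.74 in 3DHL against HM, and Tgfbr3 from -0.28 to 0.029 in 3DHL against CS. Tgfbr1 ranged from -0.080 to 0.042 in hepatocytes with KCs, Tgfbr3 from -0.19 to 0.032 in LSECs with KCs, Tgfb1 from -0.092 to 0.11 in LSECs against hepatocytes of 3DHL, and Smad7 from -0.13 to 0.17 between the KC groups. In LSECs against KCs of 3DHLK, Tgfb3 ranged from -0.24 to 0.43, Inhba from -0.26 to 0.28, Tgfb1 from -0.30 to 0.10 and Smad7 from -0.072 to 0.24.

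The mean of all probe sets turned Tgfbr3 in LSECs against hepatocytes of 3DHL (0.081), and in LSECs against hepatocytes of 3DHLK it turned Tgfbr1 (0.017) and Smad7 (0.20). It also turned Smad7 between the KC groups (-0.31) and in hepatocytes against KCs (-0.092), Tgfb2 (0.070) and Tgfbr1 (0.034) in LSECs against KCs, and the Tgfbr1 interaction (0.10). Loess turned Tgfbr1 in hepatocytes with KCs (0.078), Smad7 between the KC groups (-0.34) and Inhba in LSECs against KCs (-0.0097), and housekeeping centring turned Smad7 between the KC groups (-0.31). Other probe sets turned Smad7 in LSECs against hepatocytes of 3DHLK (0.84 and 0.053), between the KC groups (-0.54 and -0.41), in hepatocytes against KCs (-0.60 and -0.057) and in LSECs against KCs (-0.0034). They turned Inhba in 3DHL against HM (-0.20), Tgfb2 in LSECs against KCs (0.31), and Tgfbr3 in 3DHL against CS (0.004), in LSECs against hepatocytes of 3DHL (0.37) and between the KC groups (-0.47). For Tgfbr1 they turned LSECs against hepatocytes of 3DHL (0.29) and of 3DHLK (0.61), LSECs against KCs (0.24), hepatocytes against KCs (-0.37) and the interaction (0.32).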

Other observations

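Other pathway genes differed between the KC fraction of the 3DHLK model and KC monolayers, where 31 of 89 were higher and 25 were lower, 62.9% against 65.2% of all genes. Nrros, which holds latent TGF-beta on macrophages, fell by 4.46 (adjusted p = 1.09e-16), and the type I receptor Acvrl1 fell by 2.35 (adjusted p = 2.84e-07). Hamp, the hepatocyte hormone hepcidin, rose by 5.47 (adjusted p = 1.36e-16), and the activin antagonist Fst rose by 2.47 (adjusted p = 2.92e-09). In LSECs against hepatocytes of the 3DHLK model, 18 of 89 were higher and 41 were lower, 66.3% against 60.4% of all genes. Gdf15 rose by 2.90 (adjusted p = 4.19e-10) and Plg rose by 2.25 (adjusted p = 4.05e-10), while Inhbb fell by 3.72 (adjusted p = 3.01e-12), Fbn1, which forms the microfibrils that hold latent complexes, fell by 4.69 (adjusted p = 4.85e-08) and Grem1 fell by 5.94 (adjusted p = 2.06e-09). The hepatocyte, macrophage and stellate cell lists of these groups differ as given in the report, and their part in these values was not tested.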
